A study of Homo sapiens with 10 samples.

Results

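The 5 large genes FHIT, WWOX, IMMP2L, CNTNAP2 and MACROD2 lie at common fragile sites. They were taken as fixed intervals of the human genome build hg19: FHIT at chr3:59735036-61237133, WWOX at chr16:78133551-79246564, IMMP2L at chr7:110303106-111202573, CNTNAP2 at chr7:145813453-148118090 and MACROD2 at chr20:13976146-16033842. The intervals run over 1502 kb, 1113 kb, 899 kb, 2305 kb and 2058 kb in the same order. They hold 7878 of the 2798557 bins of 1 kb outside chromosome Y, and their flanks of 1 Mb on each side hold 9958 bins. WWOX, CNTNAP2 and MACROD2 are transcribed from the plus strand, and FHIT and IMMP2L from the minus strand.

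The data are CUT&RUN libraries, in which an antibody brings a nuclease to its target and the released DNA is sequenced, from K562, a human erythroleukaemia line, and HepG2, a human line from a hepatocellular carcinoma. Where cells were irradiated, a cobalt source gave a dose of 6 Gy. The groups were γH2AX in K562 at 1 h after irradiation (n = 2) and at 24 h (n = 2), H3K27me3 in irradiated K562 at 1 h (n = 1) and H2AX in untreated K562 (n = 2). From HepG2 there were γH2AX at 1 h after irradiation (n = 1) and H2AX in untreated cells (n = 2). No γH2AX library from unirradiated cells was analysed here, so γH2AX was set against untreated H2AX, which differs from it in antibody as well as in irradiation. For the H2AX libraries the labelled antibody is one against histone H4, and they serve as the untreated chromatin background.

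Common fragile sites are regions where gaps and breaks appear on chromosomes when DNA replication is slowed, and many span very long genes that replicate late and hold few replication origins. Deletions inside such genes are frequent in cancer cells. H2AX is a histone variant that the damage kinases phosphorylate over long stretches around DNA double-strand breaks, and the phosphorylated form is called γH2AX. H3K27me3 is the repressive histone mark of the Polycomb system. FHIT encodes a hydrolase of dinucleoside polyphosphates and WWOX an oxidoreductase with WW domains. IMMP2L encodes a subunit of the inner mitochondrial membrane peptidase, CNTNAP2 a neuronal adhesion protein of the neurexin family, and MACROD2 an enzyme that removes ADP-ribose from proteins.

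The start regions of IMMP2L and WWOX are shown because both genes change at their start: in K562 at 1 h, γH2AX of IMMP2L stepped up at its start, and γH2AX of WWOX, low along the gene, was near the H2AX level close to its start. FHIT also changed at its start, as given below, and its sequence is not shown. The sequences are RefSeq promoters of build GRCh38.p14, from 250 bases before the start to 50 bases after it, 5′ to 3′ on the gene's strand, and the capitals mark each CG. IMMP2L is read from chr7:111562443-111562742 on the minus strand and WWOX from chr16:78099404-78099703 on the plus strand, and these positions are not on hg19.
IMMP2L: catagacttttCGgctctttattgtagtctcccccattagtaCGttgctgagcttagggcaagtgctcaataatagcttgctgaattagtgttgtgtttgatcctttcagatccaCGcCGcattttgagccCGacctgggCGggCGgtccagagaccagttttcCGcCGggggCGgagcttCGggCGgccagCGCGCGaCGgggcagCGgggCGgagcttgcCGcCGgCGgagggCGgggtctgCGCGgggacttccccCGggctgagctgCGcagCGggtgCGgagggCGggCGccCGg
WWOX: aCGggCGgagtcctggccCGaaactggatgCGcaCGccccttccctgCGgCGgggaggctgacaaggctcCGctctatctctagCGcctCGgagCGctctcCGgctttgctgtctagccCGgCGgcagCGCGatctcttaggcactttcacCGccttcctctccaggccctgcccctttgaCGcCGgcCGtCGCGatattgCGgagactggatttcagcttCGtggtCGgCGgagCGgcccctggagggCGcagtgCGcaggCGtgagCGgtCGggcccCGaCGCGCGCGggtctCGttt
CG reads the same on both strands. It occurs 31 times in the IMMP2L promoter and 38 times in that of WWOX, against a median of 14 over 35116 promoters of the same length. Of all promoters, 20.7% hold at least as many as IMMP2L and 9.91% at least as many as WWOX. The entries of FHIT, CNTNAP2 and MACROD2 nearest the outer end of the gene hold 13, 16 and 34. A promoter entry was matched for all 5 genes.

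Each value below is a mean read depth over bins divided by the mean of its library, so 1 is the library's average. The tracks correspond to between 22.3 and 83.1 times 1e6 reads per library. A gene of 900 to 2305 bins held between 3359 and 100033 reads in every γH2AX and H2AX library, and the fewest reads in any 100-kb window of the genes was 504 outside 24 h replicate 1 and H3K27me3. The first K562 24 h library stands apart. It had no signal in any bin outside chromosome Y in which the 1 h libraries averaged a depth above 1.64 reads per base, and 35.7% of all its bins were at 0, against 2.69% in 24 h replicate 2. Of the genes, IMMP2L and CNTNAP2 were hit most, with 80.4% and 79.9% of their bins at 0, followed by FHIT with 19.2%, MACROD2 with 10.1% and WWOX with 4.04%. The models below therefore leave that library out, and its values and the counts with all 10 libraries are given beside them. The steps of the depth values, taken as the read length, were 60 bp in the K562 1 h γH2AX and H3K27me3 libraries and 41 bp in all others, so read length and group cannot be told apart there. Whether replicates were separate cultures is not stated, so each p-value reflects the spread of these libraries, which could be technical only.

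The untreated H2AX depth of K562 was uneven across the genes, with 2 low segments inside FHIT that HepG2 did not have. The gene means were 0.604 and 0.601 for FHIT in the K562 replicates, against 1.01 and 1.01 in HepG2. They were 0.568 and 0.602 for MACROD2 in K562, against 1.84 and 1.91 in HepG2. Both K562 libraries lay below both HepG2 libraries in FHIT, MACROD2 and WWOX, and above both in IMMP2L and CNTNAP2. How often the lines did not overlap over all features was not counted. IMMP2L had 1.69 and 1.66 in K562, against 1.00 and 1.06 in HepG2, and CNTNAP2 had 1.16 and 1.25 in K562, against 0.872 and 0.891 in HepG2. WWOX was the closest between the lines, with 1.26 and 1.21 in K562, against 1.32 and 1.29 in HepG2. The order of the gene means in K562 was IMMP2L, then WWOX and CNTNAP2, which do not differ beyond the gap between their replicates, then FHIT and MACROD2, which also overlap. The plot of H2AX along the genes shows these levels with their flanks.

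**Figure D1:**
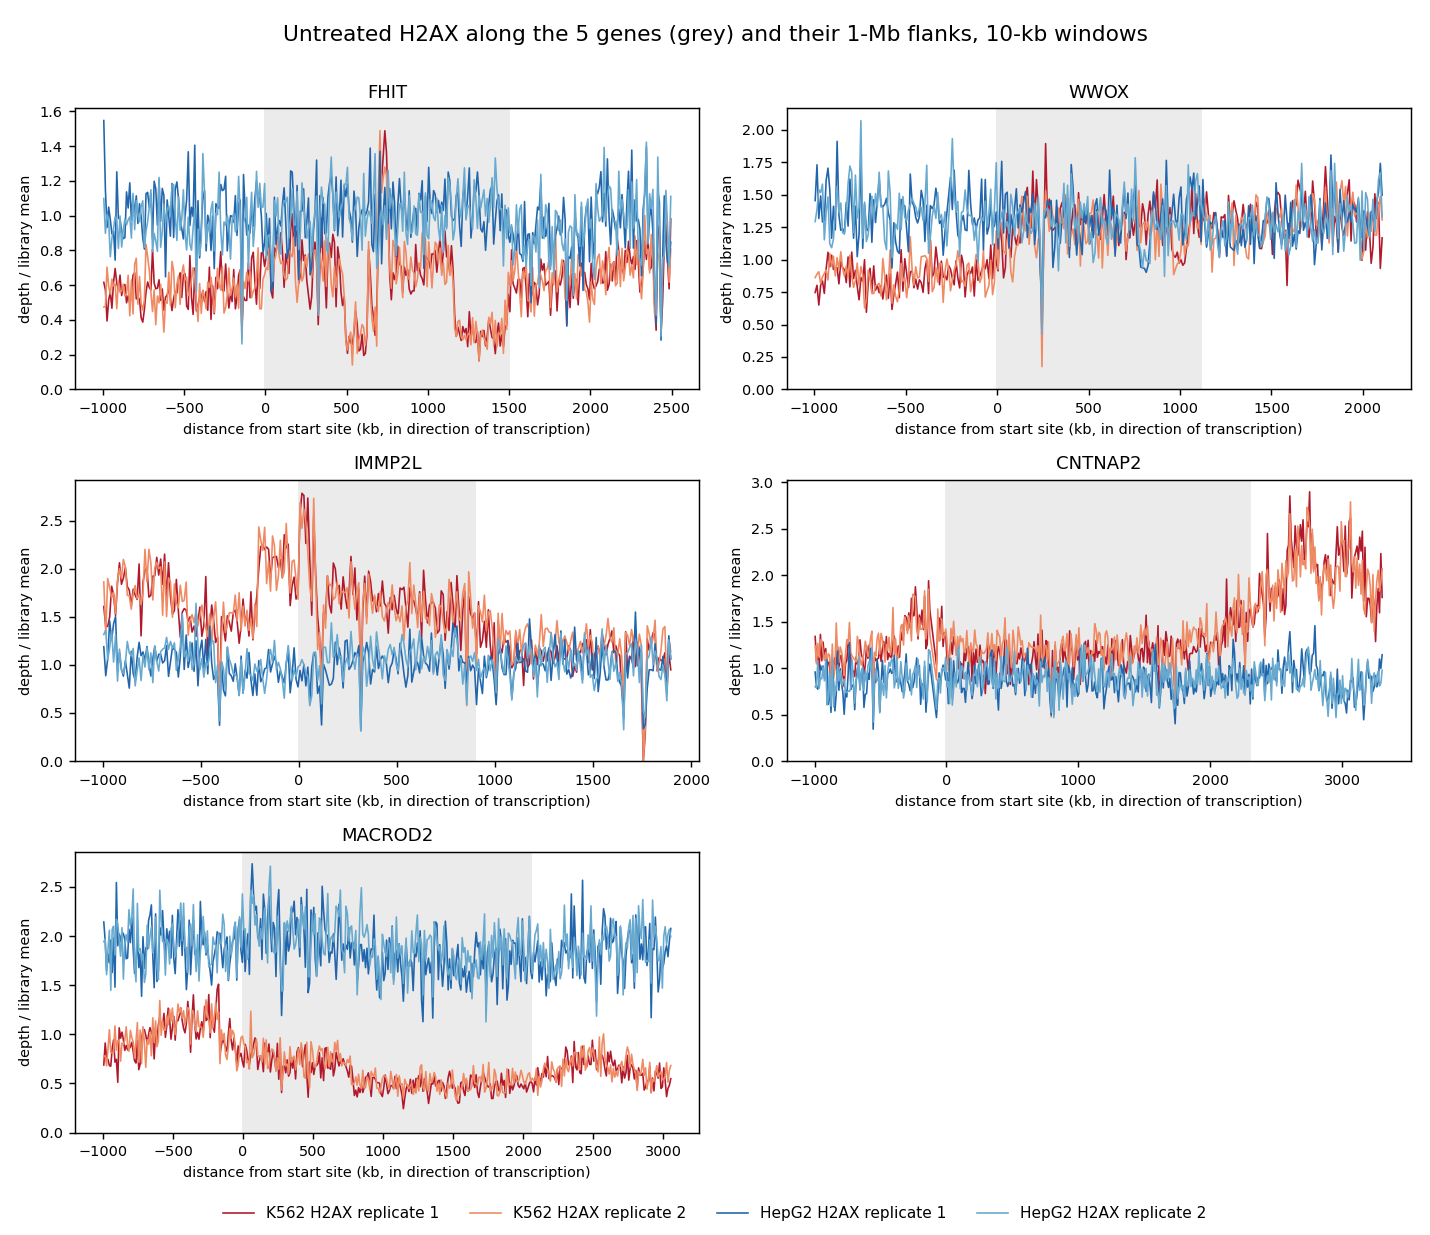
Untreated H2AX depth over the library mean (vertical axis) in 10-kb windows against distance from the start site in kb, for both K562 and both HepG2 replicates, with the gene in grey and 1 Mb of flank on each side. In FHIT the K562 lines drop to about 0.3 in segments of 140 kb and 320 kb while the HepG2 lines stay near 1, and in MACROD2 the K562 lines lie below the HepG2 lines over the whole gene.

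A loss was first sought as at least 5 neighbouring 10-kb windows with both K562 H2AX libraries at or below 0.25 of their library mean and both HepG2 libraries at or above 0.5. No such run was found in the 5 genes in K562, and the mirrored rule found 0 in HepG2. The lowest 10-kb window of FHIT had a mean K562 H2AX level of 0.214. For scale, the longest run of 100-kb windows with both K562 H2AX libraries at or below 0.01 and both HepG2 libraries at or above 0.5, chr9:20800001-26500000, read 0.00131 and 0.0014 in K562 H2AX, against 0.929 and 0.943 in HepG2 H2AX. All low segments of FHIT held far more reads than that segment. With a limit of 0.4 in place of 0.25, 5 runs of 350 kb in all were found.

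Partial losses were sought as at least 10 neighbouring windows in which both K562 libraries were at most 0.7 of both HepG2 libraries. There were 3: chr3:59740001-60080000 (340 kb) and chr3:60610001-60770000 (160 kb) in FHIT, and chr20:13980001-16030000 (2050 kb), which is nearly all of MACROD2. HepG2 H2AX averaged 1.03 and 1.06 in the first, 1.02 and 1.05 in the next, but 1.84 and 1.91 in MACROD2. There K562 H2AX averaged 0.568 and 0.602, so the rule was met through high HepG2 depth as well as low K562 depth. A division of the K562 over HepG2 ratio into segments, added after the values had been seen, placed the borders of the FHIT segments at chr3:59750001-60070000 (320 kb) and chr3:60610001-60750000 (140 kb). The first ends near the 3′ end of the gene and the other lies on the 5′ side of the gene's midpoint.

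The 320-kb segment of FHIT averaged 0.315 and 0.324 in K562 H2AX, where its neighbours averaged 0.663 and 0.677. The segment was thus at 0.475 and 0.478 of its neighbours in the K562 H2AX replicates, against 1.06 and 1.11 in the HepG2 H2AX replicates. Both K562 libraries were near 0.5 of the neighbouring depth, and neither HepG2 library was below its neighbours. The 140-kb segment averaged 0.285 and 0.305 in K562 H2AX and was at 0.397 and 0.432 of its neighbours, against 1.00 and 1.06 in HepG2 H2AX. Its neighbours were taken as chr3:60070001-60480000 and chr3:60750001-61260000, and the short segments in between were left out. Of these, chr3:60550001-60610000, which touches the 140-kb segment, was intermediate, with 0.506 and 0.481 in K562 H2AX. The other, chr3:60480001-60550000, was raised, with 1.22 and 1.18. The raised stretch of 70 kb was the only segment of FHIT in which K562 H2AX exceeded HepG2 H2AX, with 1.01 and 0.965 in HepG2.

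The same 2 segments were low in the K562 libraries that did not choose them. The 320-kb segment was at 0.489 and 0.456 of its neighbours in γH2AX at 1 h, at 0.582 and 0.50 in γH2AX at 24 h, at 0.522 in H3K27me3, and at 1.04 in HepG2 γH2AX. The 140-kb segment was at 0.344 and 0.328 at 1 h, at 0.639 and 0.542 at 24 h, at 0.616 in H3K27me3, and at 0.989 in HepG2 γH2AX. The neighbours of both segments include chr3:60070001-60480000, where 1 h γH2AX was raised, with 1.08 and 0.864, against 0.701 and 0.713 in H2AX. The 1 h ratios are therefore partly set by that stretch. On the other side of the 320-kb segment, chr3:58840001-59750000 had 0.424 and 0.270 at 1 h, against 0.307 and 0.207 in the segment. On the other side of the 140-kb segment, chr3:60750001-61260000 had 0.587 and 0.399, against 0.278 and 0.199. Counted together with the K562 and HepG2 H2AX libraries, whose ratio defined the segments, all 7 K562 libraries were below 0.7. All 3 HepG2 libraries were above 0.9. The H3K27me3 ratio of the shorter segment rests on 551 reads.

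**Figure D2:**
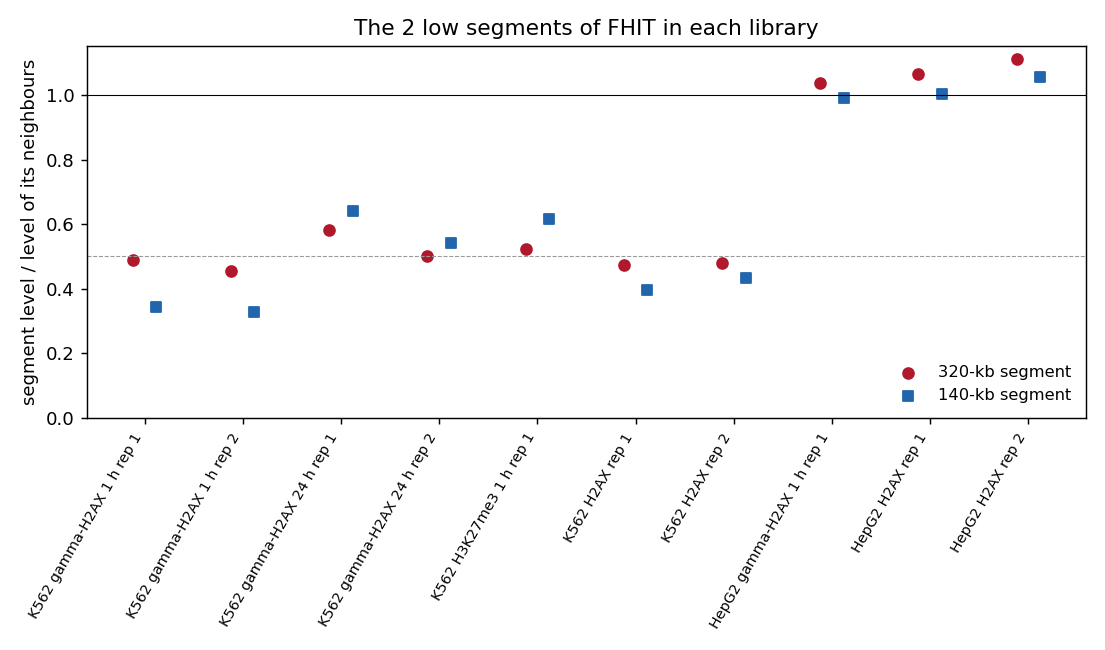
Level of the 320-kb (circles) and 140-kb (squares) segments of FHIT divided by the level of their neighbours, for each library, with a solid line at 1 and a dashed line at 0.5. The K562 libraries lie between 0.328 and 0.639 and the HepG2 libraries between 0.989 and 1.11. The H2AX points of both lines are from the libraries that defined the segments.

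MACROD2 differed from FHIT in that its depth was low throughout rather than in inner segments. K562 H2AX averaged 0.725 and 0.766 in chr20:13920001-14750000 and 0.479 and 0.507 in chr20:14750001-16110000, which runs past the 3′ end. HepG2 H2AX averaged 2.0 and 2.04 in the first of these and 1.74 and 1.84 in the second. The difference between the lines was not limited to the gene. The upstream flank of MACROD2 averaged 0.986 and 1.01 in K562 H2AX, against 1.89 and 1.94 in HepG2 H2AX, and the downstream flank 0.631 and 0.659, against 1.83 and 1.87. Both flanks were below HepG2, and the downstream one was also well below the K562 library mean. In WWOX the K562 depth stepped near the gene's start. It was 0.873 and 0.882 upstream of chr16:78140001 and 1.27 and 1.22 in the next 770 kb, while HepG2 had 1.35 and 1.37 upstream and 1.32 and 1.31 after it. In CNTNAP2 K562 H2AX had 1.15 and 1.24 over most of the gene and 1.93 and 1.91 in the 650 kb that start at chr7:148020001, most of which lie beyond the 3′ end.

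By the limma test over 27610 windows of 100 kb, K562 H2AX was higher than HepG2 H2AX in 28 and lower in 30 of the 78 windows of the genes (adjusted p under 0.05). Of all windows, 24.5% were called higher and 29.7% lower. The calls were split by gene. All 20 windows of MACROD2 and 10 of 15 of FHIT were lower, while all 9 of IMMP2L and 19 of 23 of CNTNAP2 were higher and 0 of 11 of WWOX were called. With 24 h replicate 1 in the fit, 0 windows of the genes were called higher and 24 lower, where 1.98% and 6.91% of all windows were. Without 1 of the 4 H2AX libraries fewer windows of the genes were called than in the main fit. The median log2 difference, K562 minus HepG2, was then between -0.137 and -0.072 over the windows of the genes and between -0.058 and -0.040 over all windows. Fewer copies and less of the bound histone per copy cannot be told apart in these values.

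At 1 h after irradiation the 5 genes did not move together in K562. Against H2AX, 26 of their 78 windows were higher in γH2AX and 22 lower (limma, adjusted p under 0.05), where 33.3% and 37.7% of all windows were called higher and lower. The median log2 fold change was 0.14 over their windows and 0.06 over all windows. WWOX was lower in 11 of 11 windows, with a median of -1.34. CNTNAP2 was higher in 13 and lower in 2 of 23 windows, and MACROD2 higher in 7 and lower in 1 of 20. IMMP2L was higher in 4 and lower in 2 of 9, and FHIT higher in 2 and lower in 6 of 15. With 24 h replicate 1 in the fit, 0 windows of the genes were called higher and 10 lower, where 0.587% and 17.8% of all windows were. Without K562 H2AX replicate 1, 5 windows of the genes were higher and 19 lower, where 15.4% and 31.7% of all were, and without replicate 2 there were 10 and 17, where 19.1% and 31.8% were. Without HepG2 H2AX replicate 1 or 2, 13 were higher and 21 lower, where 23% and 35.4% of all were in either fit.

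WWOX had γH2AX levels of 0.638 and 0.398 at 1 h in K562, against 1.26 and 1.21 in H2AX. The 1 h replicates differ from each other by more than the H2AX replicates do, and both lie below both H2AX libraries. The depletion ran along most of the gene. From 5 to 50 kb past the start it was small, with 1.05 and 0.893 in 1 h γH2AX, against 1.07 and 1.15 in H2AX (log2 ratio -0.19). Divided into 4 equal parts from start to end, WWOX had log2 ratios of 1 h γH2AX over H2AX of -1.16, -1.21, -1.36 and -1.29. Its lowest window was chr16:78200001-78300000, with 0.479 and 0.330 in 1 h γH2AX, against 1.26 and 1.17 in H2AX (log2 fold change -1.50, SE 0.15, adjusted p = 0.000187). Its highest was chr16:78100001-78200000, the window that holds the start, with 0.824 and 0.616 in 1 h γH2AX, against 1.04 and 1.07 in H2AX (log2 fold change -0.53, SE 0.13, adjusted p = 0.00743). Within 5 kb of the start γH2AX reached 1.14 and 0.826, against 0.849 and 1.01 in H2AX, so the depletion was not seen there. H3K27me3 went the other way, with 0.662 within 5 kb of the start and 2.60 over the gene.

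IMMP2L was the highest of the genes at 1 h, with 2.35 and 1.88 in γH2AX, against 1.69 and 1.66 in H2AX. The signal was concentrated at the 5′ end and was lower with each part. In the 4 parts from start to end γH2AX had 3.59, 2.78, 1.79 and 1.22 in replicate 1 and 3.14, 2.37, 1.14 and 0.875 in replicate 2. The log2 ratio over H2AX was 0.83, 0.63, -0.14 and -0.54 in those parts. The border was sharp. From 5 to 50 kb downstream of the start γH2AX had 5.94 and 5.24, against 2.69 and 2.47 in H2AX, and from 5 to 50 kb upstream of it 1.1 and 0.806, against 1.72 and 1.90 in H2AX. H3K27me3 had 0.148 on the downstream side and 2.29 on the upstream side. The highest window was chr7:111100001-111200000, with 4.60 and 4.03 in 1 h γH2AX, against 2.27 and 2.14 in H2AX (log2 fold change 0.95, SE 0.098, adjusted p = 0.000187). The lowest was chr7:110400001-110500000, with 1.18 and 0.802 in 1 h γH2AX, against 1.54 and 1.57 in H2AX (log2 fold change -0.65, SE 0.16, adjusted p = 0.00688).

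FHIT was raised in an inner stretch, and 6 of its 15 windows were lower. Over the whole gene γH2AX had 0.654 and 0.489 at 1 h and H2AX had 0.604 and 0.601, so the 1 h replicates lay on both sides of the H2AX level. The log2 ratio in its 4 parts from the start was -0.48, -0.39, 0.48 and -0.25. The third part was above 0 in both 1 h replicates, while the last had 0.034 in replicate 1 and -0.61 in replicate 2. At the start of FHIT the log2 ratio was -1.07 from 5 to 50 kb upstream and 0.071 from 5 to 50 kb downstream. H3K27me3 had 1.65 on the upstream side and 0.10 on the downstream side. The highest window was chr3:60200001-60300000, with 1.42 and 1.26 in 1 h γH2AX, against 0.707 and 0.755 in H2AX (log2 fold change 0.83, SE 0.11, adjusted p = 0.000356). It lies between the low segments, in DNA of ordinary K562 depth for this gene. The lowest was chr3:59700001-59800000, which holds the 3′ end of the gene, with 0.329 and 0.209 in 1 h γH2AX, against 0.451 and 0.501 in H2AX (log2 fold change -0.75, SE 0.17, adjusted p = 0.00488).

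CNTNAP2, the longest of the genes, was evenly and slightly raised over most of its length. The gene had 1.31 and 1.46 in 1 h γH2AX, against 1.16 and 1.25 in H2AX. The log2 ratio was 0.37, 0.31 and 0.35 in the first 3 of its 4 parts and -0.25 in the last, where H3K27me3 reached 1.22 after 0.11, 0.0873 and 0.10. In the first 3 parts 24 h replicate 2 had log2 ratios over H2AX of 0.39, 0.38 and 0.30, and HepG2 γH2AX over its own H2AX had 0.21, 0.19 and 0.23, so ratios above 0 were not limited to the K562 1 h libraries. The highest window, chr7:146000001-146100000, had 1.48 and 1.64 in 1 h γH2AX, against 1.08 and 1.18 in H2AX (log2 fold change 0.45, SE 0.11, adjusted p = 0.00688). The lowest, chr7:148000001-148100000, had 0.772 and 0.525 in 1 h γH2AX, against 1.47 and 1.52 in H2AX (log2 fold change -1.16, SE 0.16, adjusted p = 0.000355).

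In MACROD2 the log2 ratio over H2AX was lower near the start and higher further on, opposite to that of IMMP2L. MACROD2 had 0.579 and 0.695 in 1 h γH2AX, against 0.568 and 0.602 in H2AX. The log2 ratio in its 4 parts from the start was -0.25, 0.08, 0.43 and 0.32. The γH2AX level itself changed little, with 0.594, 0.613, 0.564 and 0.545 in replicate 1 and 0.662, 0.698, 0.721 and 0.698 in replicate 2. K562 H2AX in the same parts had 0.734, 0.591, 0.466 and 0.483 in replicate 1 and 0.761, 0.646, 0.487 and 0.515 in replicate 2. H3K27me3 was nearly missing, with 0.0448 over the gene and 65.9% of bins at 0. The highest window, chr20:15500001-15600000, had 0.591 and 0.786 in 1 h γH2AX, against 0.426 and 0.469 in H2AX (log2 fold change 0.56, SE 0.14, adjusted p = 0.00854). The lowest, chr20:14000001-14100000 near the start, had 0.588 and 0.552 in 1 h γH2AX, against 0.796 and 0.834 in H2AX (log2 fold change -0.48, SE 0.10, adjusted p = 0.00341).

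**Figure D3:**
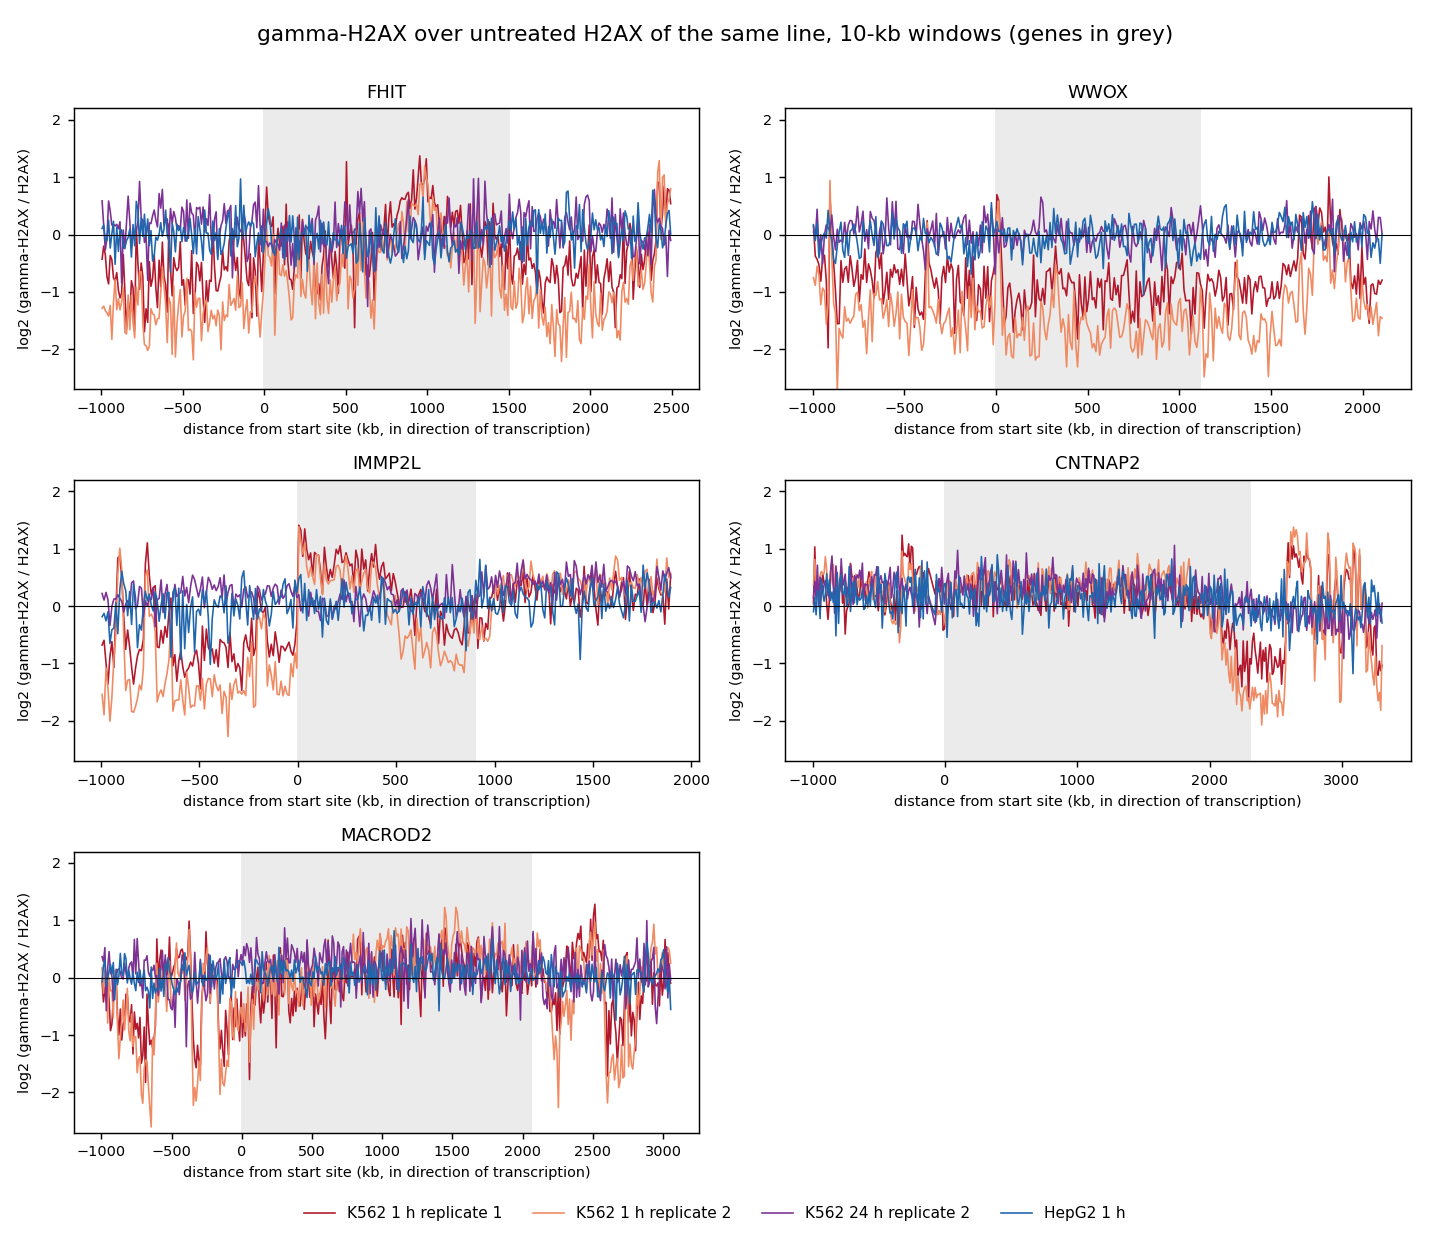
Log2 ratio of γH2AX over the mean untreated H2AX of the same line (vertical axis, pseudocount 0.05) in 10-kb windows against distance from the start site in kb, with the gene in grey. Both K562 1 h replicates step up at the start of IMMP2L, from 5 to 50 kb of which they have 5.94 and 5.24 of the library mean, lie below 0 along most of WWOX away from its start and peak inside FHIT.

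Set against their own flanks of 1 Mb, 3 of the 5 genes differed at 1 h by the same test, run over 2776 features made of these genes and of 1-Mb windows. Of all features, 31.1% were called higher and 32.3% lower than their flanks. FHIT had gene-to-flank ratios of 1.55 and 1.70 in 1 h γH2AX, against 0.983 and 0.966 in H2AX, and its ratio rose by 0.66 on the log2 scale (SE 0.044, adjusted p = 0.000526). IMMP2L had 1.82 and 1.59 in 1 h γH2AX, against 1.20 and 1.12 in H2AX, and rose by 0.54 (SE 0.072, adjusted p = 0.00154). In both genes the 1 h and the H2AX libraries did not overlap, but how often that was so over all features was not counted. In FHIT the gene level itself was not raised in both replicates, with 0.654 and 0.489 at 1 h, against 0.604 and 0.601 in H2AX. Its flanks were low at 1 h (0.421 and 0.287, against 0.614 and 0.622 in H2AX), so its higher ratio goes with the fall of the flanks.

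WWOX had gene-to-flank ratios of 0.907 and 0.852 in 1 h γH2AX, against 1.15 and 1.12 in H2AX, and fell by 0.34 (SE 0.041, adjusted p = 0.00117 by limma). Its flanks were depleted too, with 0.703 and 0.468 in 1 h γH2AX, against 1.09 and 1.09 in H2AX, and with flanks of 0.5 Mb the difference was -0.03 (adjusted p = 0.474). MACROD2 had 0.766 and 1.06 in 1 h γH2AX, against 0.703 and 0.721 in H2AX, a difference of 0.32 that did not pass the test (SE 0.14, adjusted p = 0.0893). Without 1 h replicate 1 it was 0.53 and without 1 h replicate 2 it was 0.10, both past the threshold. CNTNAP2 had 0.689 and 0.785 in 1 h γH2AX, against 0.711 and 0.763 in H2AX, a difference of -0.0041 (SE 0.079, adjusted p = 0.966). With 24 h replicate 1 in the fit, 0 genes and 0% of all features were called, although the differences themselves are the same.

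**Figure D4:**
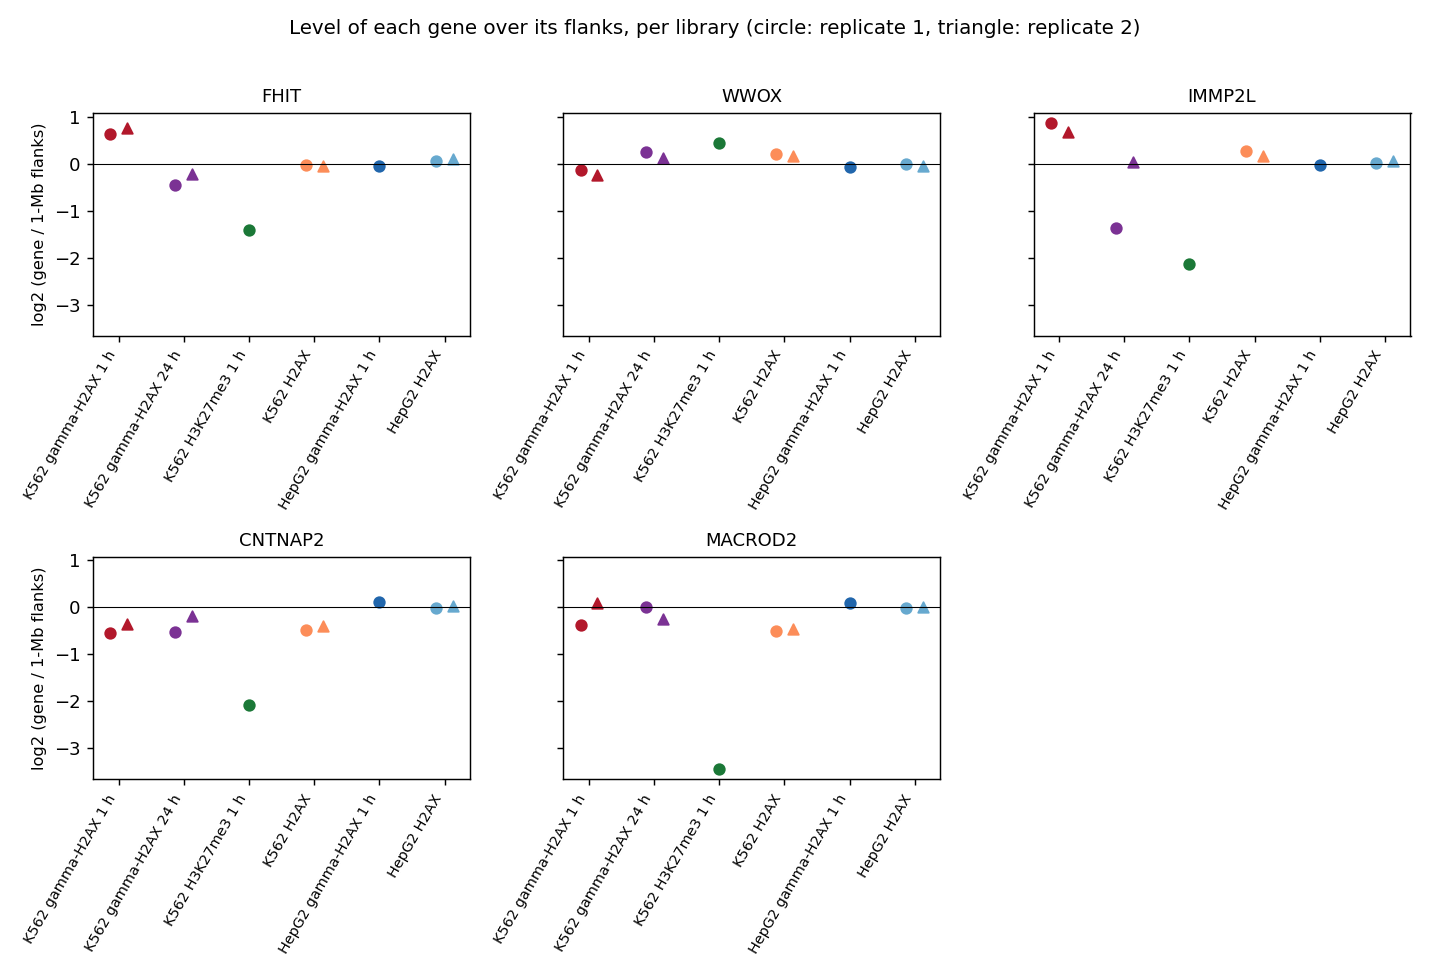
Log2 of each gene's level over the level of its 1-Mb flanks (vertical axis) for every library, by group. At 1 h the K562 γH2AX points of FHIT (ratios 1.55 and 1.70) and IMMP2L (1.82 and 1.59) lie above those of K562 H2AX, while the HepG2 points of all genes lie near 0.

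At 24 h FHIT, WWOX and IMMP2L were near the H2AX level in replicate 2, while CNTNAP2 and MACROD2 were not. Its gene levels over the mean K562 H2AX differed by a log2 of 0.0043 in FHIT, -0.02 in WWOX, 0.12 in IMMP2L, 0.31 in CNTNAP2 and 0.30 in MACROD2. At 1 h the mean of the log2 ratios was 0.20 in CNTNAP2 and 0.12 in MACROD2. No window of the genes and 0% of all windows passed the limma test against H2AX, and 12 of the 78 had an unadjusted p under 0.05, as had 8026 of 27610. A fit of the 24 h and H2AX groups alone, whose spread comes from the H2AX pair, called 34 windows of the genes higher and 0 lower, where 30.8% and 24.4% of all windows were. Without 1 h replicate 1, whose pair widens the shared spread, 39 were higher and 1 lower, where 34.9% and 26.9% of all were, and without 1 h replicate 2 there were 38 and 1, where 34.9% and 27.1% were. The H2AX libraries are shared with the comparison at 1 h.

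Between the times, 26 windows of the genes were higher at 24 h than at 1 h and 5 lower (limma, adjusted p under 0.05), where 36.8% and 20.5% of all windows were called. WWOX was higher at 24 h in 11 of 11 windows, with 1.22 in 24 h replicate 2, against 0.638 and 0.398 at 1 h. FHIT was higher in 5 and lower in 1 of 15 windows, MACROD2 higher in 5 of 20 and CNTNAP2 in 3 of 23. IMMP2L was the one gene with more windows lower than higher at 24 h, 4 against 2 of 9, and had 1.82 in 24 h replicate 2, against 2.35 and 1.88 at 1 h. Against the flanks, 24 h was lower than 1 h by 0.82 on the log2 scale in FHIT (adjusted p = 0.000809) and by 0.72 in IMMP2L (adjusted p = 0.00156), and higher by 0.28 in WWOX (adjusted p = 0.00451). The call in WWOX was lost with flanks of 0.5 Mb, with -0.0054 (adjusted p = 0.928), and with the compared groups alone (adjusted p = 0.0783). Of all features, 30.3% were higher at 24 h and 27% lower. The 24 h side is 1 library, whose spread is taken from the other groups. In 24 h replicate 1 the gene levels were 0.790 in FHIT, 1.96 in WWOX, 0.469 in IMMP2L, 0.494 in CNTNAP2 and 1.06 in MACROD2. With it in place of replicate 2, the median log2 difference, 24 h minus 1 h, was 0.39 over the windows of the genes and 0.35 over all windows. Without 1 h replicate 1 these medians were 0.074 and 0.081, and without 1 h replicate 2 they were 0.19 and 0.17.

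In HepG2 the log2 ratio of γH2AX over untreated H2AX ranged from -0.09 in FHIT to 0.19 in CNTNAP2 over the 5 gene levels. The γH2AX level lay between the H2AX replicates in IMMP2L, below both in FHIT and WWOX, and above both in CNTNAP2 and MACROD2. At 1 h the γH2AX library had 0.949 in FHIT, 1.26 in WWOX, 1.05 in IMMP2L, 1.00 in CNTNAP2 and 2.04 in MACROD2. HepG2 H2AX had 1.01 ± 0.0042, 1.30 ± 0.021, 1.03 ± 0.037, 0.882 ± 0.013 and 1.87 ± 0.051 in the same order (SD, n = 2). No window of the genes and 0% of all windows passed the limma test, with 1 of 78 and 1660 of 27610 at an unadjusted p under 0.05. Fitted with HepG2 H2AX alone, 16 windows of the genes were higher and 2 lower, where 14.2% and 16.6% of all windows were. Without K562 1 h replicate 1 the shared fit called 7 higher and 0 lower, where 6.02% and 14.1% of all were, and without replicate 2 it called 7 and 1, where 5.98% and 14.4% were.

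The difference between the lines in the 1 h response, K562 minus HepG2, was called in 21 of the 78 windows, 5 higher in K562 and 16 lower (limma, adjusted p under 0.05). Of all windows, 16.4% were called higher and 29.3% lower. WWOX made up 11 of the 16 lower windows, with a median log2 difference of -1.24. Of the 5 higher windows, 4 were the neighbouring windows of IMMP2L from chr7:110800001 to chr7:111200000, next to its start, and 1 was chr3:60200001-60300000 in FHIT. The response of the genes against their flanks also differed between the lines in FHIT (0.80, SE 0.069, adjusted p = 0.00589), IMMP2L (0.59, SE 0.11, adjusted p = 0.0113) and WWOX (-0.30, SE 0.065, adjusted p = 0.0151), where 21.4% of all features were called higher and 23.2% lower. With flanks of 0.5 Mb the difference in WWOX was 0.013 (adjusted p = 0.875). HepG2 γH2AX is 1 library, and with 24 h replicate 1 in the fit 0 of the 78 windows and 0% of all were called. How many windows were called depended on which library was left out. Without K562 H2AX replicate 1 the median log2 difference was -0.059 over the windows of the genes and -0.035 over all windows. Without K562 H2AX replicate 2 these medians were 0.019 and 0.028, and without HepG2 H2AX replicate 2 they were -0.010 and -0.015. Without K562 1 h replicate 1 they were 0.040 and 0.023, and without K562 1 h replicate 2 they were -0.053 and -0.039.

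Where H3K27me3 was high in the genes, 1 h γH2AX of K562 was low. In the 59 windows with H3K27me3 under 0.5 of its library mean the median log2 ratio of 1 h γH2AX over H2AX was 0.28, in the 6 windows from 0.5 to 1.5 it was -0.41, and in the 13 windows at 1.5 or more it was -1.28. The ratio was above 0 in 41 of the 59 windows, in 1 of the 6 and in 0 of the 13. Over all windows of the genome it was above 0 in 12539 of 15031, in 1464 of 5901 and in 506 of 6678. Their medians were 0.32, -0.53 and -1.09 in the same strata, so the medians of the genes fell in the same order. In the stratum under 0.5, a smaller share of the genes' windows than of all windows was above 0. Of the 13 windows with the most H3K27me3, 11 are those of WWOX. Spearman's rho between H3K27me3 and the log2 ratio was -0.70 over the 78 windows and -0.73 over all 27610. Within the genes it was -0.87 over the 9 windows of IMMP2L, -0.68 over the 23 of CNTNAP2, -0.58 over the 15 of FHIT, -0.54 over the 11 of WWOX and -0.38 over the 20 of MACROD2. These are descriptions: neighbouring windows are not independent, H3K27me3 is a single library, and it shares its read length with the 1 h γH2AX libraries. The HepG2 log2 ratio, set against the same K562 H3K27me3 library, gave -0.58 over the 78 windows and -0.53 over all windows. Within the genes it was -0.70 in WWOX, -0.32 in IMMP2L, -0.26 in CNTNAP2, -0.10 in MACROD2 and 0.21 in FHIT.

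FHIT shows that low H3K27me3 did not go with raised γH2AX everywhere. Its highest window had H3K27me3 of 0.0977 and a log2 ratio of 0.83, but the first of its 4 parts had H3K27me3 of 0.321 and a log2 ratio of -0.48. MACROD2 had less H3K27me3 than any of the other genes in the first of its 4 parts, 0.0623, with a log2 ratio of -0.25.

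**Figure D5:**
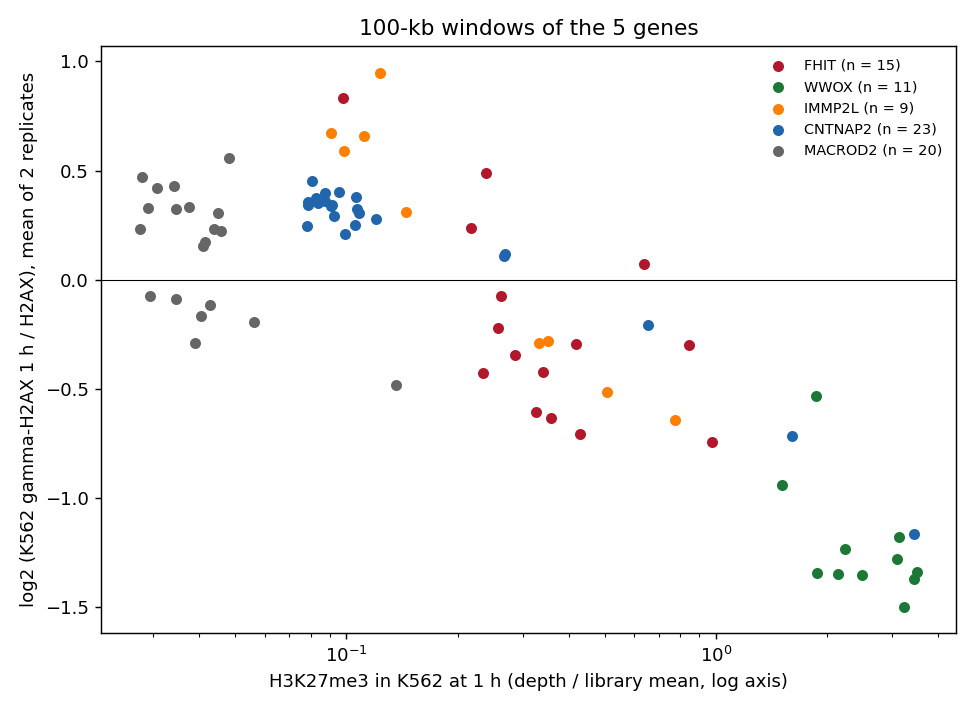
Log2 ratio of K562 1 h γH2AX over H2AX (vertical axis, mean of 2 replicates) against H3K27me3 over its library mean (horizontal log axis) in the 78 windows of 100 kb, coloured by gene. The windows of WWOX lie at the right and below 0, with a median log2 ratio of -1.34, and the highest point, 0.95, is the window of IMMP2L next to its start.

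The authors' γH2AX peaks in these genes lay mostly in IMMP2L. The 1 h lists held 56 peaks in IMMP2L in replicate 1 and 24 in replicate 2, which is 62.3 and 26.7 per Mb. Over all bins the lists held 15.0 and 16.5 per Mb, so IMMP2L lay above the genome's density in both. FHIT had 6 and 1 peaks, CNTNAP2 5 and 3, and WWOX and MACROD2 had 0 in both lists. Together the genes held 67 and 28 peaks (8.51 and 3.55 per Mb), against 95 and 73 in their flanks (9.5 and 7.3 per Mb). These sums hide opposite results by gene. The flanks of CNTNAP2 held 76 and 56 peaks (38 and 28 per Mb), against 2.17 and 1.30 per Mb in the gene. Those of IMMP2L held 10 and 9 (5 and 4.5 per Mb), fewer than the gene. The lists of 24 h replicates 1 and 2 and of HepG2 held 8, 13 and 156 peaks over all bins and 0 in the genes, which with so few peaks says nothing about the genes.

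Within IMMP2L the peaks followed the slope of the signal: its 4 parts from the start held 28, 22, 6 and 0 in replicate 1 and 15, 9, 0 and 0 in replicate 2. It was the only one of the 5 genes with a peak within 5 kb of its start, 1 in each list. The peak with the highest fold, by the authors' own values, was chr7:111104050-111104439 in replicate 1 (fold 3.69, −log10 q 2.91) and chr7:110902933-110903217 in replicate 2 (fold 2.85, −log10 q 1.52). In FHIT it was chr3:60374324-60374922 (fold 2.46) in replicate 1 and chr3:60236671-60236993 (fold 1.40) in replicate 2, both between the low segments. In CNTNAP2 it was chr7:147321943-147322515 (fold 2.27) and chr7:146181351-146182386 (fold 2.32). Of the peaks in the genes, 10 of 67 and 5 of 28 had q under 0.05 (14.9% and 17.9%), against 3397 of 41947 and 6785 of 46072 over all bins (8.1% and 14.7%).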

How the data were processed

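The analysis starts from the deposited files of 10 CUT&RUN libraries. Per the submitters' processing notes the build is hg19 and the tools include BWA 0.7.12, SAMtools and MACS2, with no roles or settings. The deposited signal is read coverage, as mean depth per base in 1-kb bins, not scaled to library size. Steps of 41 or 60 bp in the low values were taken as the read length to give read numbers. The deposited peak lists give a fold per peak, with its p-value and q-value as −log10. They were called per library, per the labels, against a control that is not stated. The gene intervals and gene lists were chosen with earlier results of these data known. A further gene of the planned set is not reported here.

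Bins were divided by the library mean and averaged into 100-kb windows, leaving out chromosome Y and windows with under 50% of their bins. Windows in which H2AX of both lines reached 0.25 of the mean (all 78 of the genes) entered the test as log2(relative depth + 0.05), which understates changes of low windows. R 4.3.3 and limma 3.58.1 fitted a mean-variance trend to 9 libraries, 6 group means and 3 residual degrees of freedom, with Benjamini-Hochberg adjustment over all windows. Groups of 1 library take their spread from the others. Gene-against-flank ratios were tested likewise beside 1-Mb windows with their flanks. For H2AX steps, log2 K562 over HepG2 in 10-kb windows was divided by least squares into segments of at least 5 windows, with neighbours at least 0.3 apart. This rule was added after seeing the data. Both methods were tested on simulated data. For the segments the simulation had less noise than the windows of these genes (SD 0.222 in FHIT) and only steps well above 0.3. It therefore cannot show how well the borders are placed here. The highest and lowest 100-kb window of each gene, all loss segments and the top peak per list are named by rule. A list of other fragile-site genes, planned for an hg19 annotation, was not analysed here. Python 3.11.15, numpy 2.4.6, pandas 2.3.3 and matplotlib 3.10.9 were used.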

Additional observations from a re-analysis of the deposited data

Results flagged for a closer look

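The 1 h response of γH2AX over H2AX differed between K562 and HepG2 by the test of the difference itself (limma, adjusted p under 0.05). This was so in 21 of the 78 windows of the 5 genes, 5 higher in K562 and 16 lower, where 16.4% and 29.3% of all windows were called. With 24 h replicate 1 in the fit, 0 windows were called. The gene-against-flank response, K562 minus HepG2, differed by 0.80 on the log2 scale in FHIT, 0.59 in IMMP2L and -0.30 in WWOX. With flanks of 0.5 Mb the value in WWOX was 0.013 (adjusted p = 0.875). In FHIT the gene-to-flank ratio was 1.55 and 1.70 in K562 γH2AX at 1 h, against 0.959 in HepG2 γH2AX at 1 h. The K562 flanks of FHIT were low at 1 h, with 0.421 and 0.287, against 0.614 and 0.622 in H2AX. The gene itself had 0.654 and 0.489, against 0.604 and 0.601 in H2AX. Without K562 H2AX replicate 2 the adjusted p of FHIT was 0.0513 and that of IMMP2L 0.0572, and IMMP2L had 0.0501 and 0.0517 without HepG2 H2AX replicate 1 or 2. WWOX passed in none of the fits that left out a K562 or HepG2 H2AX replicate, with adjusted p between 0.06 and 0.0744. HepG2 γH2AX at 1 h is 1 library, so its own spread is unknown.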

How the results depend on the processing

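Adding 24 h replicate 1 left 10 windows of the genes called for 1 h γH2AX over H2AX, 0 for the difference between the lines, 24 for K562 over HepG2 H2AX, and 0 genes against flanks for 1 h over H2AX (3 for 24 h over 1 h). With only the compared groups, 18 were called for 24 h over 1 h, 34 for 24 h over H2AX and 18 for HepG2. For 24 h over 1 h, 11.5% of all windows were higher and 16.3% lower in that fit. Windows of 50 kb, of which there are more, gave 83, 59, 40 and 110 calls for 1 h over H2AX, 24 h over 1 h, the lines and H2AX. Of all windows of 50 kb, 29.3%, 37.8%, 15.2% and 22.4% were higher in the same order, and 38.6%, 19.2%, 29.8% and 27.1% lower. Leaving out or exchanging 1 library gave 24 to 68 calls for 1 h over H2AX, 24 to 69 for 24 h over 1 h, 0 to 68 for 24 h over H2AX, 0 to 8 for HepG2, 8 to 51 for the lines, 35 to 71 for H2AX, and 3 to 5 genes against flanks for 1 h over H2AX and 0 to 4 for the lines. Over all windows the calls also rose and fell between these fits. The exchange of 24 h replicate 2 for replicate 1 was chosen after seeing the data. The cause was not tested. Losses numbered 5 at a limit of 0.4. Peaks with q under 0.05 averaged 0.952 per Mb, against 6.03.

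Gene against flanks reversed in CNTNAP2 for 1 h over H2AX (-0.095 to 0.087 on leaving out libraries), and for the lines in MACROD2 (-0.0012 to 0.43) and WWOX (0.013 with 0.5-Mb flanks). With the replicate number as a block, 50 windows were called for 1 h over H2AX, 33 for 24 h over 1 h, 17 for the lines and 59 for H2AX. Of all windows, 35.6%, 36.6%, 14.1% and 24.3% were higher in the same order, and 37.6%, 19.5%, 24.1% and 30.3% lower. Deviations of same-numbered libraries correlated at 0.18, 0.027 and 0.30 between the groups, with 2 numbers only, so the numbers are not taken as pairs. The remaining alternatives, other pseudocounts, filters and scaling among them, kept the counts within 1.5 times. The segments in FHIT were also found with steps of 0.5, and with 5-kb windows.

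The number of libraries limits these results: no group has more than 2, the 24 h and HepG2 γH2AX values rest on 1 each, and H3K27me3 on 1.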

Other observations

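In the flank beyond the 3′ end of CNTNAP2, chr7:148670001-148990000 averaged 2.57 and 2.73 in K562 γH2AX at 1 h, against 2.18 and 2.05 in K562 H2AX.

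Within 5 kb of the CNTNAP2 start, HepG2 γH2AX at 1 h had 1.49, against 0.656 and 0.813 in HepG2 H2AX, over 10 bins. K562 γH2AX at 1 h had 1.16 and 0.865 there, against 1.20 and 1.22 in K562 H2AX. These values were chosen after they had been seen and were not tested.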
